A study of Homo sapiens with 21 samples.

Results

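The genes described here encode proteins that liver cells secrete into blood plasma: 24 of blood coagulation and its control, 18 of the complement system and 7 carrier proteins of plasma. They were chosen as a written list of 49 symbols, which was matched to Ensembl identifiers in a gene count table of 37637 features, and all 49 were found. Their transcripts were counted in HepG2, an established cell line from a human liver cancer that still expresses many plasma protein genes. The rule for the list uses no measured value, though it was written with earlier results of these data known.

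The study exposed HepG2 cells for 6 h to caffeine at 0, 0.01, 0.1, 1, 10, 100 or 1000 µM, with 3 libraries at each dose and 21 in all. Caffeine, a methylxanthine, is an antagonist of adenosine receptors. Every group, that at 0 µM included, was moved from medium with serum to fresh DMEM without serum for those 6 h, was harvested with trypsin and had its RNA selected on poly(dT) beads. A text of the series calls the control coumarin at 0 µM, while the labels of the samples have it as untreated, with caffeine at 0 µM, and these were followed. One cell line stands for the hepatocyte in all groups, and the series describes the 3 libraries of a dose as biological replicates without saying how the cultures were kept apart. The p-values below measure the spread between these libraries, which may be technical.

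Hepatocytes make most of the soluble proteins of plasma. In coagulation, serine proteases such as factor XI, factor X and prothrombin activate each other in series on lipid surfaces and end in thrombin, which turns fibrinogen into fibrin. Serpins and the protein C system hold this cascade back, and plasmin dissolves the fibrin. In complement, the lectin pathway (MBL2 with MASP1 and MASP2) and the classical pathway (C1R, C1S) split C4 and C2, C3 is then split, and C5 to C9 assemble a pore in the target membrane. Albumin is the main carrier of adult plasma and alpha-fetoprotein (AFP) its fetal relative, which liver cancer cells often make again.

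Sequences are printed for 3 groups of neighbouring or partner genes: the 3 fibrinogen chain genes, the lectin pathway genes and the pair ALB and AFP. Their promoter windows are shown here, from 250 bases before to 50 bases after the start site, from RefSeq on GRCh38.p14, 5′ to 3′ on the strand of the gene. Where RefSeq gives several starts, the start nearest to the 5′ end of the gene in GENCODE v29 was taken. Capitals mark every match, on either strand, to the motifs searched: the TATA box TATAAA, the acute phase STAT3 element CTGGGAA, the aryl hydrocarbon receptor core GCGTG, the C/EBP motif TTGCNNCAA, the cAMP response element TGACGTCA and its short form TGACG, which lies within the full element.
FGA, chr4:154590693-154590992, minus strand: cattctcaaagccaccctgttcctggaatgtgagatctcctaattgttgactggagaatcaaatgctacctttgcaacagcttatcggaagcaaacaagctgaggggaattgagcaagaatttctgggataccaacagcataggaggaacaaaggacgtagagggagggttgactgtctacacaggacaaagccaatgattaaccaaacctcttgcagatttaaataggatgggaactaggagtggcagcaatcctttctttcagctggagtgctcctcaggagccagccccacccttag
FGB, chr4:154562730-154563029, plus strand: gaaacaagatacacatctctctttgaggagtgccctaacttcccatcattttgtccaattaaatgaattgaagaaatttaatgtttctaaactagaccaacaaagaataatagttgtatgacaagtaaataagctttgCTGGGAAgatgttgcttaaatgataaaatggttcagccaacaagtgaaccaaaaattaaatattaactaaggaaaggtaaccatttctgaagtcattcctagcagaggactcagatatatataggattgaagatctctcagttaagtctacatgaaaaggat
FGG, chr4:154612607-154612906, minus strand: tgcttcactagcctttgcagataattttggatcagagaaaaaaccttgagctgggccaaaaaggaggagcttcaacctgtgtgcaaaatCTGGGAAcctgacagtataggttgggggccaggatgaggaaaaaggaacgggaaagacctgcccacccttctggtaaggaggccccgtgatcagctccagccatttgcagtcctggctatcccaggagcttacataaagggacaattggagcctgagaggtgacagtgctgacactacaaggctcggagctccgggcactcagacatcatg
MBL2, chr10:52771603-52771902, minus strand: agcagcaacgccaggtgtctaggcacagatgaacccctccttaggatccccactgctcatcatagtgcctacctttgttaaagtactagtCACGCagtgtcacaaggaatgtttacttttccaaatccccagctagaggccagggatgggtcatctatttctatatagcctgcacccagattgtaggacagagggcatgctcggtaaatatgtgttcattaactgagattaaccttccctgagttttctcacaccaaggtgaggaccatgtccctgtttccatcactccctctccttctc
MASP1, chr3:187291688-187291987, minus strand: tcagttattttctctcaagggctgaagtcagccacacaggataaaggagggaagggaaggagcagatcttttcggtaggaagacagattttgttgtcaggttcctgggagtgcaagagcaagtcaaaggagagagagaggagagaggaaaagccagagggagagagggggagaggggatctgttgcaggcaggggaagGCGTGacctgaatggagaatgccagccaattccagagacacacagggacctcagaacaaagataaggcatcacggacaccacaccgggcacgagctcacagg
MASP2, chr1:11047190-11047489, minus strand: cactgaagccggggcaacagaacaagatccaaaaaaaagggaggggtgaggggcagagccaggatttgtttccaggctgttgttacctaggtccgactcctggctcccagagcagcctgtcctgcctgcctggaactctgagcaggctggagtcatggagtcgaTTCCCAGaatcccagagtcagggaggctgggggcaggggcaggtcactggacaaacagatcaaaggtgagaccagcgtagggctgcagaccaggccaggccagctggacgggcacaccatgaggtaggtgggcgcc
ALB, chr4:73404037-73404336, plus strand: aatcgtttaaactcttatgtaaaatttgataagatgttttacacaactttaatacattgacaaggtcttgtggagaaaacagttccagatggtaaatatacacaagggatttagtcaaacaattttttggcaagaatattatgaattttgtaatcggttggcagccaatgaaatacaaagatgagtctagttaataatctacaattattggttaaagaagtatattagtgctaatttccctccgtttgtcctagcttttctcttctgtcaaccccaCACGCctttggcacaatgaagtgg
AFP, chr4:73435971-73436270, plus strand: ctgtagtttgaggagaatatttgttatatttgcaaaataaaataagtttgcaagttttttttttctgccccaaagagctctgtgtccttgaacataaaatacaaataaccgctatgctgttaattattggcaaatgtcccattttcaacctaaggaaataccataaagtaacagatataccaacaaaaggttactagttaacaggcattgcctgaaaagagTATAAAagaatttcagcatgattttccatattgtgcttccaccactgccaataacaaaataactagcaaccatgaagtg

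The STAT3 element stood at -112 to -106 from the start in FGB and at -161 to -155 in FGG, while the window of FGA held no match. MBL2 held a core motif of the aryl hydrocarbon receptor at -160 to -156. In MASP1 the only match was that core motif, at -52 to -48, and in MASP2 the only match was the STAT3 element, at -86 to -80. AFP held a TATA box at -29 to -24. In ALB the only match to the motifs searched was the aryl hydrocarbon receptor core, at 27 to 31 after the start. Windows were found for 40 of the 49 genes, while HP, C8G, SERPINC1, SERPINF2, C1S, C4B, TTR, C3 and C4A are named only.

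Over the 40 genes, the STAT3 element was in 8 (20%), against 13.1% of 27305 genes with such windows. The TATA box was in 4 of 40 (10%, against 14% of genes) and the aryl hydrocarbon receptor core in 8 (20%, against 40.6%). The short cAMP form was in 9 (22.5%, against 28.4%). The full cAMP element was in 0 of 40 and in 2.25% of genes, and the C/EBP motif was in 0 of 40 and in 2.45% of genes. These are matches of letters within 300 bases, not tests of binding.

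Libraries held 28043623 to 40827833 counts, with a median of 32497612. The share of counts on mitochondrial genes was 4.95% to 14.2%, with 11.7% in the first replicate at 0.01 µM, 14.2% in replicate 3 at 1 µM and 11.3% in replicate 1 at 10 µM. The first replicate at 0.01 µM stood apart over all genes tested: it was the lowest of the 21 libraries for 16.8% and the highest for 12.4%. Over the genes described its share was near this, with the lowest value for 10 and the highest for 5 of 46. Replicate 3 at 1 µM was the lowest for 10.9% and the highest for 13% of all genes tested, and replicate 3 at 1000 µM for 12.1% and 12%. The first replicate at 0 µM, which is in the reference of every comparison with 0 µM, was the lowest for 5 and the highest for 10 of the 46, and the lowest for 9.69% and the highest for 10.4% of all genes tested. Hepatocyte markers were abundant throughout, with HNF4A at 312 to 397 CPM (counts scaled to 1 fixed library total, with TMM factors between libraries) and GPC3, a gene active in liver cancer, at 1380 to 2136 CPM. The endothelial genes CDH5, VWF and TEK, 3 of 5 listed that were in the table, had at most 9 counts in any library. Of 4 blood and Kupffer cell genes in the table, PTPRC and ITGAM had at most 1 and 3 counts, CD14 was at 0.444 to 1.54 CPM and CD68 at 53.4 to 108 CPM, and their sum was 72.7 to 85.8 CPM without caffeine and 54.0 to 77.2 CPM at 1000 µM. Of 5 stellate and fibroblast genes, COL1A2 had 0 counts, DCN and COL1A1 at most 1 and 6, PDGFRB was at 4.11 to 8.84 CPM and ACTA2 at 35.8 to 75.6 CPM. Their sum was 71.1 to 77.0 CPM without caffeine and 44.6 to 50.3 CPM at 1000 µM, where ACTA2 was lower and PDGFRB higher (log2 change -0.87 and 0.95, adjusted p 4.17e-06 and 7.63e-07, edgeR), and the part of this in the results below was not tested.

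Of the 49 genes, 46 passed a filter on low counts and were tested. Plasma prekallikrein (KLKB1) had 88 counts in all 21 libraries together, C6 had 26 and C9 had 1, so changes in these were not detectable at this depth. Per kilobase of exon, the highest mean levels over all libraries were those of ALB at 1652 CPM per kb, SERPINA1 (alpha-1-antitrypsin) at 1121, AFP at 792, AHSG (fetuin-A) at 756 and ORM1 (orosomucoid) at 731 CPM per kb. C3 led the complement genes at 200 CPM per kb, and prothrombin (F2) led the clotting proteases at 149 CPM per kb. At the low end, PLG (plasminogen), F13B and C8B each averaged under 1 CPM, at 0.394, 0.30 and 0.353 CPM. The libraries are of bulk RNA, so fewer cells of a kind and less RNA per cell cannot be told apart.

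At 1000 µM caffeine, 23 of the 46 genes tested differed from 0 µM at an adjusted p under 0.05, with 7 higher and 16 lower (quasi-likelihood test of edgeR, adjusted by Benjamini-Hochberg over all 17468 genes tested). The lower genes included the 3 fibrinogen chains, factor XII, the complement genes MASP2, C8G and C4BPB, haptoglobin and AFP. The higher genes were F5, F11, SERPIND1, C3, C5, MASP1 and MBL2. The background was high, since 41.2% of all genes tested passed at this dose, 20.6% as higher and 20.6% as lower. The share of these genes that passed as lower (16 of 46) lay above that background and the share that passed as higher (7 of 46) below it, and neither difference was tested.

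Most of the differences were small. At 1000 µM, 31 of 46 genes lay within 0.5 of 0 µM on the log2 scale, and 3 (F12, PLG and MBL2) changed by 1 or more, where 11.7% of all genes tested did. The median log2 change (log2 of the fitted fold against 0 µM) was -0.18 over the 46 genes, -0.23 over the 23 coagulation genes tested, -0.11 over the 16 complement genes and -0.24 over the 7 carriers, against -0.03 over all genes tested. The 3 libraries at 1000 µM lay all above those at 0 µM for 7 genes and all below them for 23, against 25.9% and 27.3% of all genes tested. Summed over the genes of each group, coagulation transcripts stood at 8590 ± 86.5 CPM (SD, n = 3) at 0 µM and 7660 ± 408 CPM at 1000 µM, complement transcripts at 2360 ± 33.3 and 2757 ± 80.1 CPM, and carrier transcripts at 12174 ± 1061 and 10183 ± 1002 CPM. At the doses between, the mean sums ran from 7987 to 8409 CPM for coagulation, 2597 to 3005 CPM for complement and 9831 to 11335 CPM for carriers. The complement and carrier sums at 1000 µM were thus within the range of the lower caffeine doses, and the coagulation sum was below it. These sums follow their most abundant genes, SERPINA1, C3, and ALB with AFP.

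**Figure D1:**
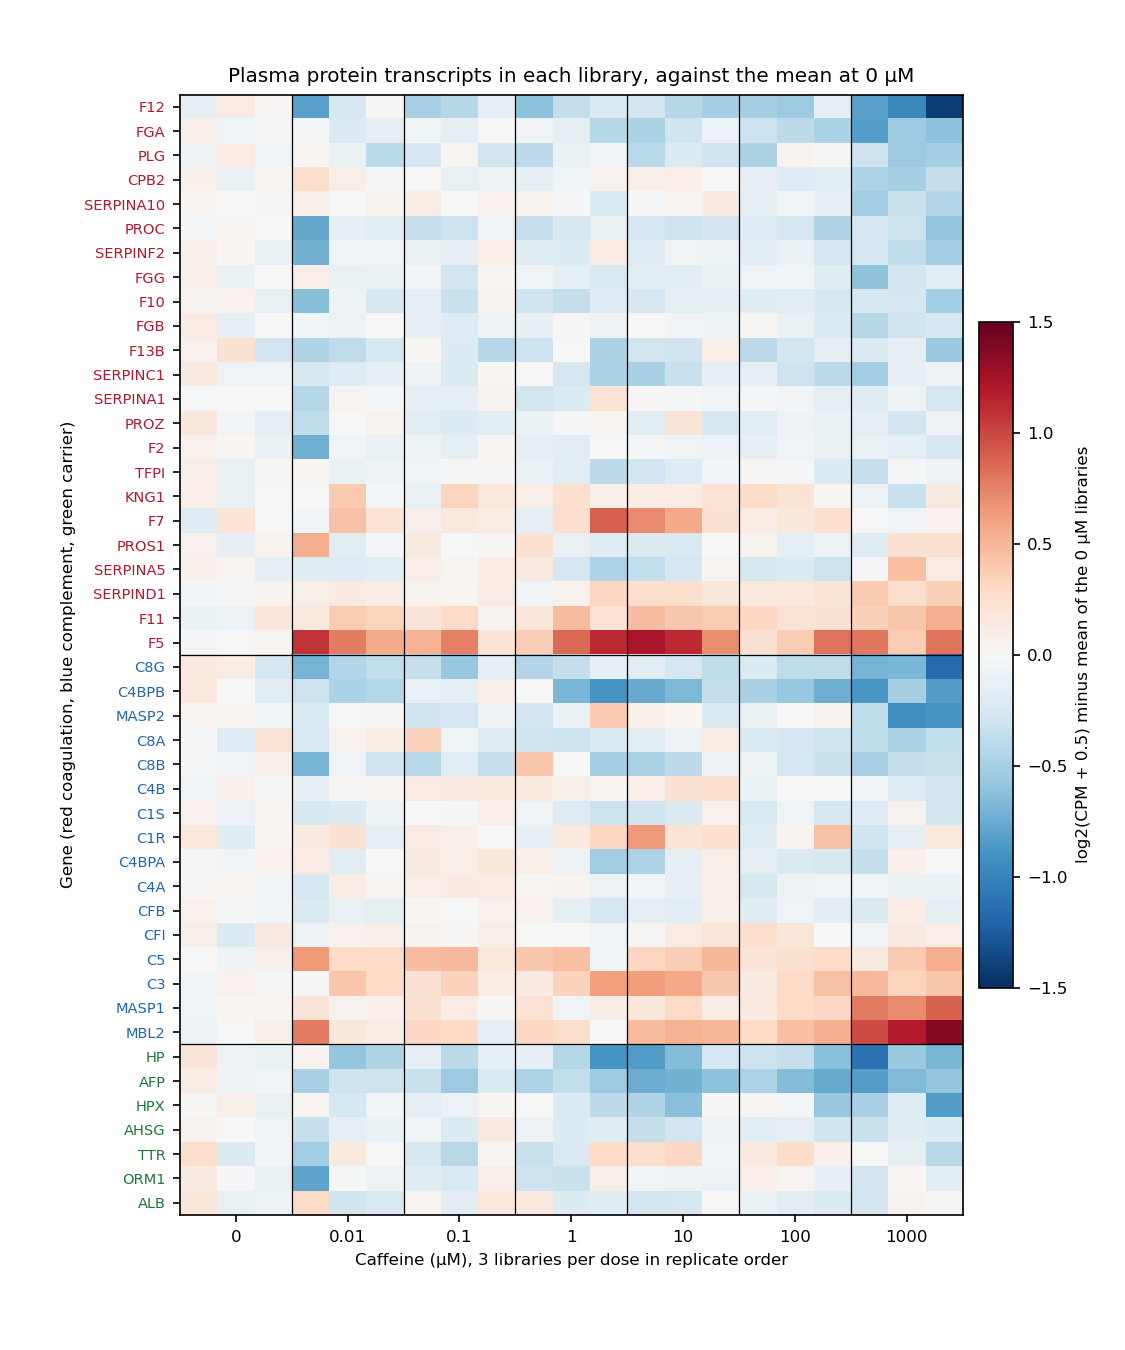
Each row is 1 of the 46 genes tested and each column 1 library, in order of dose (µM caffeine) and replicate; colour is log2(CPM + 0.5) minus the mean of the 3 libraries at 0 µM, red for higher and blue for lower, with gene names in red for coagulation, blue for complement and green for carriers. In all 3 columns at 1000 µM MBL2 and MASP1 are red and F12, MASP2, C8G and HP blue, while F5 is red from 0.01 µM on and the first column at 0.01 µM departs from its neighbours in many rows.

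Fibrinogen is built from 3 chains, and their genes FGA, FGB and FGG lie side by side on chromosome 4 (their windows are printed above). FGA stood at 276, 249 and 259 CPM in the libraries at 0 µM, in replicate order, at 209, 198 and 187 CPM at 100 µM and at 147, 178 and 170 CPM at 1000 µM. In the 9 libraries at 0.01, 0.1 and 1 µM it ran from 193 to 262 CPM with a median of 238, and at 10 µM it was 188, 212 and 245 CPM. Every library at 100 and 1000 µM was below every library at 0 µM. Against 0 µM its log2 change was -0.40 ± 0.11 (SE) at 100 µM, with an adjusted p of 0.0426, and -0.66 ± 0.11 at 1000 µM, with an adjusted p of 0.000167, in edgeR. The call at 1000 µM held in all 6 fits that each left out 1 library of the 2 groups, and the call at 100 µM in none of its 6 (adjusted p 0.0654 to 0.2 in edgeR).

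FGB fell less. Its levels were 62.0, 51.7 and 56.8 CPM without caffeine and 42.2, 46.0 and 47.4 CPM at 1000 µM, a log2 change of -0.33 ± 0.08 (SE, adjusted p 0.00362, edgeR). At the 5 doses between, the 15 libraries ran from 48.8 to 57.6 CPM around a median of 53.6. All 3 libraries at 1000 µM were below every other library of the series for FGB. FGG was at 292, 258 and 277 CPM without caffeine and at 181, 228 and 246 CPM at 1000 µM, with -0.34 ± 0.11 (adjusted p 0.0180). The call for FGG rested on single libraries: it was lost without replicate 1 or 3 at 0 µM and without replicate 1 at 1000 µM, with an adjusted p of up to 0.159 and a log2 change of -0.19 in the last of these (edgeR).

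The ratio of FGA to FGG counts in each library compares the 2 chains directly. It was 0.932 to 0.964 in the libraries without caffeine, 0.739 to 0.796 in those with 100 µM and 0.691 to 0.812 in those with 1000 µM. At the lowest dose, 0.01 µM, it was 0.868 to 0.918. The libraries of these caffeine doses did not overlap those at 0 µM. At 10 µM the ratio spread from 0.765 to 0.955, at 0.1 µM from 0.925 to 1.04 and at 1 µM from 0.821 to 0.952, each overlapping 0 µM. A ratio of this kind shows unequal change only, and it was not tested.

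**Figure D2:**
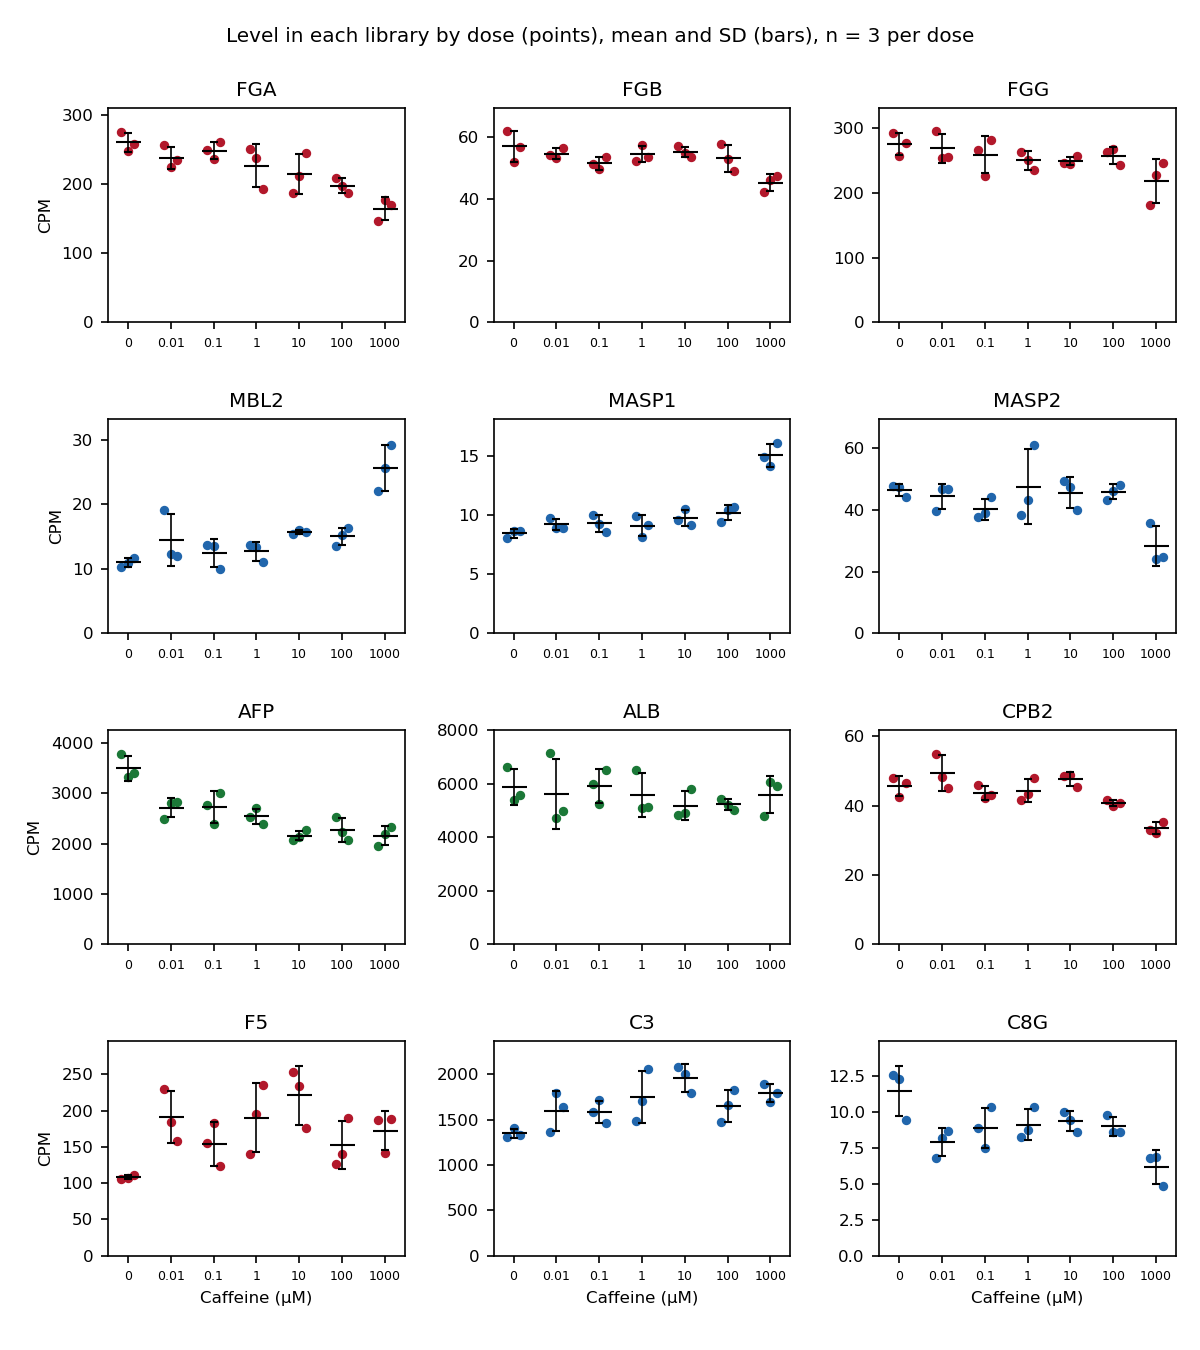
Levels in CPM (vertical axes, from 0) of 12 genes against the caffeine dose in µM (equally spaced steps); points are single libraries, and bars give the mean and SD of 3. FGA, CPB2 and AFP sit lower at 1000 µM than at 0 µM, MBL2 and MASP1 sit higher, MASP2 sits lower at the highest dose, and ALB overlaps across doses.

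Among the clotting proteases and cofactors, F12 (factor XII, which starts the contact pathway) fell most. Its levels were 3.65, 4.47 and 4.15 CPM without caffeine, and 2.11, 1.85 and 1.20 CPM at 1000 µM. The 15 libraries between ran from 2.11 to 4.13 CPM with a median of 2.92, so F12 lay below the controls in most of them. Its log2 change at 1000 µM was -1.24 ± 0.23 (SE), with an adjusted p of 0.000439 in edgeR's test, on 38 to 139 counts per library over the series. Exons of GRK6 on the opposite strand cover 14.4% of the exon bases of F12 in GENCODE v29, and since no use of strand in the counting is given in the sources used here, reads of GRK6 could be among them. F10, the protease of factor X that activates prothrombin, fell by 0.33 (adjusted p 0.0371). Its call was kept without the third replicate at 0 µM and lost in the other 5 fits without 1 library, with an adjusted p of up to 0.177.

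F11 (factor XI, the protease downstream of factor XII) rose. It was at 18.3, 18.5 and 22.3 CPM without caffeine and at 25.3, 26.3 and 28.9 CPM at 1000 µM, with a log2 change of 0.44 ± 0.10 (SE, adjusted p 0.00222, edgeR). At 10 µM, with 27.2, 26.1 and 25.8 CPM, it had nearly the same difference, 0.42 ± 0.10 (adjusted p 0.00963). The antisense gene F11-AS1 covers 10.5% of its exon bases, so a part of these counts may be of that gene.

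F5 encodes factor V, the cofactor that speeds the cleavage of prothrombin. It was at 106, 107 and 111 CPM without caffeine, at 230, 184 and 159 CPM at 0.01 µM, at 155, 183 and 123 CPM at 0.1 µM and at 140, 196 and 235 CPM at 1 µM. At 10 µM its levels were 253, 234 and 176 CPM, at 100 µM 127, 140 and 190 CPM, and at 1000 µM 187, 141 and 188 CPM. All 18 libraries with caffeine were thus above the 3 without, in no order of dose. Within 0.01, 1, 10, 100 and 1000 µM, F5 was higher in libraries with a larger share of mitochondrial counts. That share was 4.95%, 7.8% and 14.2% at 1 µM and 11.3%, 9.96% and 6.48% at 10 µM, in replicate order. At 0 and 0.1 µM the orders differed, and the part of this share in the F5 calls was not tested. In log2 units F5 was higher by 0.82 ± 0.20 (SE, adjusted p 0.0392) at 0.01 µM, by 1.03 ± 0.20 (0.00443) at 10 µM and by 0.67 ± 0.20 (0.0136) at 1000 µM (edgeR). At 0.1, 1 and 100 µM it did not pass, and the call at 1000 µM was lost without the third replicate there (adjusted p 0.056). Against the mean of 0.01, 0.1 and 1 µM, F5 at 1000 µM differed by -0.04 ± 0.17, with an adjusted p of 0.87.

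The other clotting genes gave no call at 1000 µM. Prothrombin (F2) was at 408 ± 23.4 CPM (SD, n = 3) at 0 µM and 364 ± 18.4 CPM at 1000 µM, with an adjusted p of 0.288, and F7, F13B, KNG1 (kininogen, the cofactor of the contact pathway) and PROZ did not pass either. F13B had 4 to 18 counts per library, so that even its log2 value of -0.74 had an SE of 0.45.

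Of the inhibitors and anticoagulants, SERPINA10 (the protein Z dependent inhibitor of factor X) fell the most evenly. It was at 38.5, 38.1 and 37.0 CPM without caffeine and at 26.3, 30.0 and 27.8 CPM at 1000 µM, while the 15 libraries between ran from 32.7 to 41.5 CPM with a median of 38.0. Its log2 change was -0.43 ± 0.08 (SE, adjusted p 0.000309, edgeR), and no library at 1000 µM overlapped any other dose. Its cofactor gene PROZ was at 5.45 ± 0.670 CPM (SD, n = 3) and 4.78 ± 0.358 CPM, and did not pass. SERPIND1 (heparin cofactor II, an inhibitor of thrombin) rose from 147 ± 4.92 to 185 ± 8.56 CPM (SD, n = 3), a log2 change of 0.34 with an adjusted p of 0.00335. SERPINF2 (the plasmin inhibitor alpha-2-antiplasmin) fell by 0.38 (adjusted p 0.0359) and PROC (protein C) fell by 0.38 (adjusted p 0.0327). The call of SERPINF2 was kept in 2 of 6 fits without 1 library, those without the third replicate at 0 µM or the first at 1000 µM, and that of PROC in 1 of 6, without the first replicate at 1000 µM. The adjusted p was up to 0.146 for SERPINF2 and up to 0.164 for PROC in the other fits.

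Antithrombin (SERPINC1), alpha-1-antitrypsin (SERPINA1), the protein C inhibitor (SERPINA5), protein S (PROS1) and tissue factor pathway inhibitor (TFPI) did not pass at 1000 µM. SERPINA1, the most abundant of them, was at 5794 ± 14.4 CPM (SD, n = 3) without caffeine and 5118 ± 338 CPM at 1000 µM, a log2 difference of -0.18 with an adjusted p of 0.246. In fibrinolysis, CPB2 (a carboxypeptidase that protects fibrin from plasmin) was at 48.1, 42.4 and 46.5 CPM without caffeine and at 33.1, 32.2 and 35.4 CPM at 1000 µM. At 100 µM it was at 41.7, 39.9 and 40.7 CPM, and at the 4 lower caffeine doses no library was under 41.6 CPM. Its log2 change at 1000 µM was -0.45 ± 0.08 (SE, adjusted p 0.000464, edgeR). PLG fell by 1.07 on the log2 scale (adjusted p 0.0282), on 7 to 20 counts per library, and its call was lost with DESeq2 (adjusted p 0.0752). In edgeR it was lost without the second replicate at 0 µM and without replicate 2 or 3 at 1000 µM (adjusted p up to 0.108).

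In complement, MBL2 had the largest difference at 1000 µM. It encodes mannose-binding lectin, which recognises sugars on microbes. It was at 10.4, 10.9 and 11.7 CPM without caffeine, 15.5, 16.0 and 15.7 CPM at 10 µM and 13.6, 15.2 and 16.3 CPM at 100 µM. At 1000 µM its levels reached 22.1, 25.7 and 29.2 CPM. At 0.01 µM the first replicate, which stood apart above, was at 19.1 CPM and the others at 12.4 and 12 CPM, and the 6 libraries at 0.1 and 1 µM ran from 9.96 to 13.8 CPM. Every library at 1000 µM was above all 18 others. MBL2 had a log2 change of 0.52 ± 0.16 (SE, adjusted p 0.0325) at 10 µM and 1.22 ± 0.16 (adjusted p 2.22e-05) at 1000 µM in edgeR's test. Without 1 library, the call at 1000 µM held in 6 of 6 fits and that at 10 µM in 0 of 6 (adjusted p 0.0508 to 0.120).

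MASP1 and MASP2 encode the serine proteases that MBL2 carries, and they moved in opposite directions. MASP1 was at 8.03, 8.66 and 8.68 CPM without caffeine and at 14.9, 14.2 and 16.0 CPM at 1000 µM. In all 15 libraries between it stayed at 8.15 to 10.6 CPM, with a median of 9.44. Its log2 change was 0.83 ± 0.10 (SE), with an adjusted p of 6.1e-06. MASP2 was at 47.5, 47.3 and 44.1 CPM without caffeine and at 35.6, 24.0 and 24.8 CPM at 1000 µM, with -0.72 ± 0.16 and an adjusted p of 0.00158 (edgeR). The 15 libraries between ran from 37.6 to 61.0 CPM, so for MASP2 as well every library at 1000 µM lay beyond all the others.

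The ratio of MASP1 to MASP2 counts was 0.169 to 0.197 at 0 µM, 0.15 to 0.266 in the libraries from 0.01 to 100 µM, and 0.418 to 0.648 at 1000 µM. Both genes also give shorter splice products that lack the protease domain, and counts per gene do not separate these from the proteases.

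**Figure D3:**
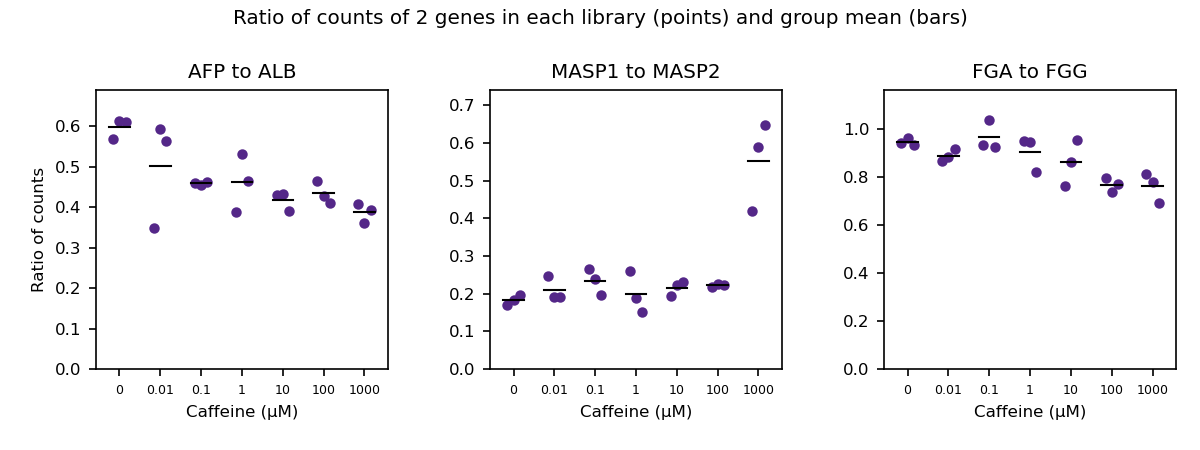
Ratio of the counts of 2 genes in each library (points) and mean of 3 (bars) against the caffeine dose in µM (equally spaced steps). AFP to ALB lies between 0.568 and 0.614 at 0 µM and between 0.362 and 0.408 at 1000 µM, with 1 low library at 0.01 µM. MASP1 to MASP2 at 1000 µM lies above every other dose, and at 100 µM it lies slightly above 0 µM. FGA to FGG is lower at 0.01, 100 and 1000 µM than at 0 µM.

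C3, the protein on which all complement pathways meet, was at 1308, 1403 and 1329 CPM without caffeine, 2083, 2002 and 1788 CPM at 10 µM and 1893, 1691 and 1790 CPM at 1000 µM. At 100 µM it was at 1474, 1655 and 1824 CPM, and the 9 libraries at 0.01 to 1 µM ran from 1361 to 2054 CPM with a median of 1641. The libraries at 1000 µM were above those at 0 µM but within the range of the lower doses. The log2 change was 0.54 ± 0.12 (SE, adjusted p 0.0063) at 10 µM and 0.41 ± 0.12 (adjusted p 0.0106) at 1000 µM, in edgeR's test. C5, whose split starts the membrane pore, rose by 0.37 at 1000 µM (adjusted p 0.0358) and by 0.40 at 10 µM (adjusted p 0.0391), in edgeR. Its call at 1000 µM was lost without the first or second replicate at 0 µM and without replicate 2 or 3 at 1000 µM (adjusted p up to 0.174), and that at 10 µM was lost in all 6 fits without 1 library.

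The pore genes downstream were low in this line. C8 has 3 chains, and C8G was at 12.6, 12.2 and 9.44 CPM without caffeine and 6.81, 6.87 and 4.82 CPM at 1000 µM, a log2 change of -0.89 ± 0.16 (SE, adjusted p 0.000274, edgeR). C8G was also lower in many libraries with little caffeine, at 6.79, 8.20 and 8.66 CPM at 0.01 µM, though no dose below 1000 µM passed. C8A, at 1.24, 1.03 and 1.53 CPM without caffeine and 0.851, 0.763 and 0.856 CPM at 1000 µM, had -0.62 ± 0.22 and an adjusted p of 0.0279. That call was kept without the second replicate at 0 µM and lost in the other 5 fits without 1 library (adjusted p up to 0.15), and with DESeq2 (adjusted p 0.0839). C8B, with 3 to 30 counts per library, had -0.93 ± 0.47 and did not pass (adjusted p 0.122).

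Of the C4b-binding protein, which limits the classical and lectin pathways and carries protein S, the beta chain gene fell and the alpha chain gene gave no call. C4BPB was at 66.5, 59.9 and 53.1 CPM without caffeine, 35.2, 37.3 and 46.4 CPM at 10 µM and 32.3, 42.2 and 33.0 CPM at 1000 µM. Replicate 3 at 1 µM, at 32.0 CPM, was the lowest of all. C4BPB was also below every library at 0 µM at 0.01 µM (47.6, 42.7 and 44.2 CPM) and at 100 µM (42.5, 40.1 and 35.7 CPM), without a call. The log2 change was -0.59 ± 0.18 (SE, adjusted p 0.0243) at 10 µM and -0.74 ± 0.18 (adjusted p 0.003) at 1000 µM (edgeR). C4BPA was at 36.0 ± 1.44 CPM (SD, n = 3) at 0 µM and 34.0 ± 5.26 CPM at 1000 µM, with an adjusted p of 0.684. The ratio of C4BPB to C4BPA counts was 1.41 to 1.87 at 0 µM and 0.913 to 1.15 at 1000 µM. It was also below the range at 0 µM at 0.01 µM (1.21 to 1.33), 10 µM (1.15 to 1.36) and 100 µM (1.17 to 1.3). At 0.1 µM (1.41 to 1.58) and 1 µM (1.09 to 1.55) it overlapped that range.

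C1R, C1S, C4A, C4B, CFB (factor B of the alternative pathway) and CFI (factor I, which cleaves C3b and C4b) gave no call at 1000 µM against 0 µM, with log2 values between -0.17 for C4B and 0.06 for CFI. C4A and C4B are nearly identical copies, so the counts of each are uncertain, and so are those of CFB, CFI and C1R, which share exon bases with AL645922.1 (45.0%), AC126283.2 (32.0%) and C1RL (11.4%) on the same strand.

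Among the carriers, AFP fell at 0.01, 10, 100 and 1000 µM. It was at 3779, 3315 and 3396 CPM without caffeine, and 2495, 2817 and 2822 CPM at 0.01 µM. With 10 µM it was at 2082, 2135 and 2272 CPM, with 100 µM at 2538, 2229 and 2065 CPM, and with 1000 µM at 1963, 2200 and 2325 CPM. The 6 libraries at 0.1 and 1 µM ran from 2386 to 3013 CPM. All 18 libraries with caffeine were below the 3 without. In log2 units AFP changed by -0.37 ± 0.10 (SE, adjusted p 0.0453) at 0.01 µM and by -0.69 ± 0.10 (0.00359) at 10 µM. Its change was -0.62 ± 0.10 (adjusted p 0.00537) with 100 µM and -0.69 ± 0.10 (4.48e-05) with 1000 µM, all in edgeR. Without 1 library, the calls at 10 and 1000 µM held in 6 of 6 fits and that at 100 µM in 5. The call at 0.01 µM held in 0 of 6 (adjusted p 0.0562 to 0.2 in edgeR).

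ALB, which lies next to AFP on chromosome 4, gave no call at any dose. It was at 6651, 5401 and 5569 CPM without caffeine and at 4808, 6069 and 5936 CPM at 1000 µM, with -0.07 ± 0.15 on the log2 scale and an adjusted p of 0.739 (edgeR). The 15 libraries between ran from 4745 to 7145 CPM with a median of 5217. The ratio of AFP to ALB counts was 0.568 to 0.614 in the libraries without caffeine, 0.454 to 0.462 in those with 0.1 µM, 0.391 to 0.434 in those with 10 µM and 0.362 to 0.408 in those with 1000 µM, with no overlap between 0 µM and these doses. In the first replicate at 0.01 µM the ratio was 0.349, against 0.564 and 0.594 in the others of that dose.

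HP (haptoglobin, which binds free haemoglobin) was at 20.3, 16.6 and 16.4 CPM without caffeine and 7.95, 11.9 and 10.8 CPM at 1000 µM, with a log2 change of -0.80 ± 0.21 (SE, adjusted p 0.00556, edgeR). The 15 libraries between ran from 9.34 to 18.3 CPM. HP has a close copy in HPR, so its counts are uncertain. HPX (hemopexin, which binds haem) had a log2 value of -0.69 ± 0.29 on 17 to 50 counts per library and did not pass (adjusted p 0.0665). AHSG was at 1973 ± 69.5 CPM (SD, n = 3) at 0 µM and 1668 ± 93.7 CPM at 1000 µM, with an adjusted p of 0.0531 that missed the threshold narrowly. TTR (transthyretin) and ORM1, whose copy ORM2 makes its counts uncertain, did not pass.

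Fewer of the genes passed at the lower doses than at 1000 µM. At 10 µM 8 of 46 passed (22% of all genes tested did): F5, F11, SERPIND1, C3, C5 and MBL2 were higher, and C4BPB and AFP lower. At 100 µM 2 passed (6.02% of all genes tested), FGA and AFP, both lower. At 0.01 µM 2 passed (4.95% of all genes tested), F5 higher and AFP lower, and both calls were lost in each fit without the first or second replicate at 0 µM or at 0.01 µM. Without 1 library F5 passed there in 2 of 6 fits and AFP in 0 of 6. At 0.1 µM edgeR called 0 of 46 (0% of all genes tested), with 4 at an unadjusted p under 0.05 and 1 called by DESeq2, and 1 (AFP) was called without the third replicate at 0.1 µM. At 1 µM it also called 0 (0% of all genes tested), with 10 at an unadjusted p under 0.05 and 4 called by DESeq2, and 5 (F5, F7, C3, C4BPB and AFP) were called without the first replicate at 1 µM. At 10 µM the 8 calls became 3 without the first replicate at 0 µM, 4 without the second there or without the first or second at 10 µM, 5 without the third at 0 µM and 10 without the third at 10 µM. F5, C3 and AFP passed in all 6 of these fits, F11 in 5, C4BPB in 2 and SERPIND1 in 1. At 100 µM the 2 calls became 0 without the third replicate at 100 µM and 1, AFP, without each other library of the comparison.

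A slope on the dose step, which takes the 7 doses as equally spaced ranks, was called in 15 of 46 genes (29% of all genes tested). It was upward in 5 (14.5% of all genes), F11, SERPIND1, C3, MASP1 and MBL2, and downward in 10 (14.5%), F12, FGA, FGG, SERPINA10, CPB2, C8A, C8G, C4BPB, HP and AFP. MBL2 had the largest upward slope, 0.15 ± 0.03 (SE) on the log2 scale per step (adjusted p 0.000794, edgeR), and F12 the largest downward slope among those called, -0.14 ± 0.03 (adjusted p 0.006). AFP, at -0.10 ± 0.02 per step, had the smallest p (adjusted p 0.000137). The slopes rested much on the ends of the series: without the libraries at 1000 µM 3 genes were called (FGA, C4BPB and AFP), and over the 18 libraries with caffeine alone 6 were (FGA, SERPINA10, CPB2, MASP1, MBL2 and AFP).

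Since every comparison with 0 µM shares the same 3 libraries, 1000 µM was also compared with the mean of 0.01, 0.1 and 1 µM, a reference of 9 libraries. There 15 of 46 genes passed (30.1% of all genes tested), 3 higher (16.2% of all genes) and 12 lower (14%). The higher genes were SERPIND1 (0.23), MASP1 (0.71) and MBL2 (0.96 on the log2 scale). The lower genes were F12 (-0.84), MASP2 (-0.64), FGA (-0.53), C8A (-0.49), C8G (-0.48), SERPINA10 (-0.45), CPB2 (-0.45), C4BPB (-0.42), AFP (-0.30), FGG (-0.25), FGB (-0.24) and C4B (-0.24). With either reference, which share the libraries at 1000 µM, 14 genes passed in the same direction. C4B passed with the second alone, and F5, F10, F11, PROC, SERPINF2, PLG, C3, C5 and HP passed against 0 µM alone. Across 12 fits that each left out 1 library, F12, FGA, SERPINA10, CPB2, MASP1, MASP2 and MBL2 passed in every one. FGB and AFP were lost without the first replicate at 1000 µM (adjusted p 0.0901 and 0.0896), and SERPIND1, C4B and C8G without the third there (0.0601, 0.0958 and 0.113). C4BPB passed in 7 of the 12, FGG in 4 and C8A in 3.

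**Figure D4:**
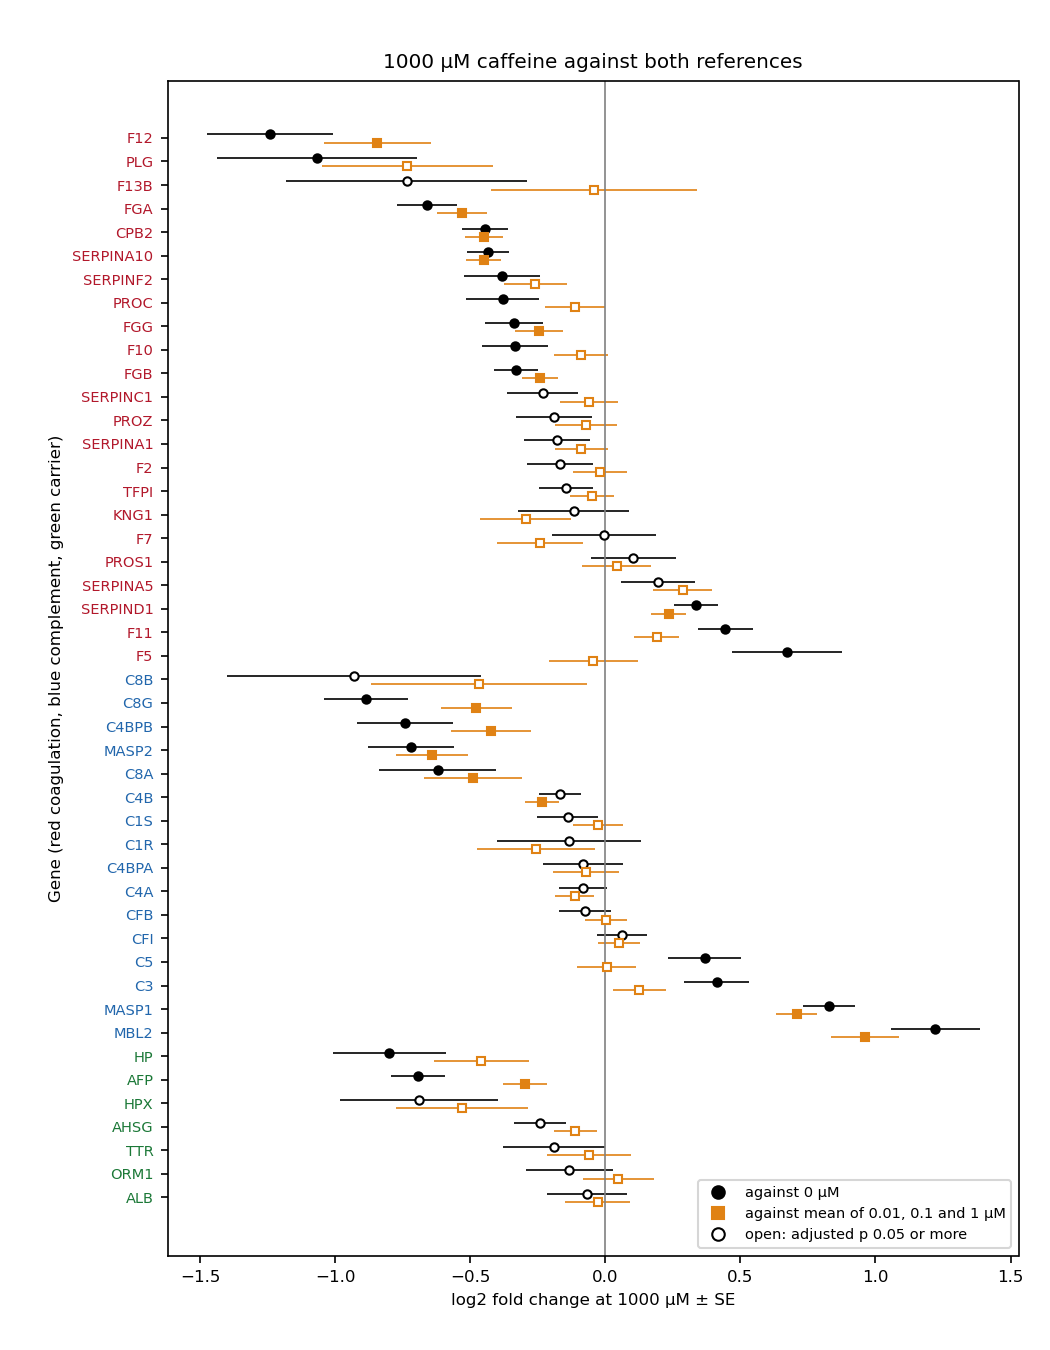
Log2 change at 1000 µM (horizontal axis, bars are SE) of each of the 46 genes tested, against 0 µM (black circles) and against the mean of 0.01, 0.1 and 1 µM (orange squares); filled points passed an adjusted p of 0.05. MBL2, MASP1, F12, FGA and MASP2 are filled and far from 0 with both references, while F5, C3 and C5 lie near 0 with the second.

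Genes of the same systems outside the list were read from a written list of 80, of which 69 were in the table and 50 were tested. At 1000 µM 15 of the 50 were higher and 15 lower than at 0 µM, with a median log2 change of -0.01, where 20.6% of all genes tested were higher and 20.6% lower. The largest difference was in HAMP (hepcidin, the hormone of iron balance), from 0.757 ± 0.117 to 4.52 ± 1.37 CPM (SD, n = 3), a log2 change of 2.57 (adjusted p 5.06e-07, edgeR). FURIN, a protease that trims the propeptides of clotting factors, rose by 1.25 and F2RL1, a receptor cleaved by proteases, by 1.08. HPR (-1.34) and SAA4 (-1.06) fell, and their counts are uncertain because of HP and of the readthrough gene SAA2-SAA4.

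Of 10 genes that process or sense clotting factors, 6 rose (FURIN, F2RL1, LMAN1, F2R, TPST1 and MCFD2) and 1 fell (VKORC1, which recycles vitamin K), beside 20.6% of all genes tested in each direction. LMAN1 and MCFD2, which form the receptor that carries factors V and VIII out of the endoplasmic reticulum, rose by 0.48 (adjusted p 0.00808) and 0.40 (adjusted p 0.0051). Of 21 regulators of hepatocyte and acute phase genes, 6 rose and 3 fell, a share near the 41.2% called among all genes tested. The glucocorticoid receptor gene NR3C1 rose by 1.27 and the interleukin-6 receptor genes IL6R and IL6ST by 1.05 and 0.83, while CEBPD fell by 1.05 and the bile acid receptor gene NR1H4 by 0.92. HNF4A (0.18, adjusted p 0.057) did not pass. Whether any of these bears on the plasma protein genes was not tested.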

How the data were processed

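The authors deposited 1 table of raw counts, whole numbers of reads for each gene, without normalization. HISAT2, DESeq2 and GRCh38 are named in the submitters' processing notes without roles, and the counting program, the annotation and the use of strand are not given in the sources used here. Of 42 per-sample columns 21 matched the sample labels and were used, and 21 were not. Symbols came from a table of gene names by Ensembl ID (32264 of 32937 matched), and exon lengths and overlaps from GENCODE v29 (32338 IDs matched).

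Counts were tested with edgeR 4.0.16 in R 4.3.3 (quasi-likelihood, TMM scaling, filterByExpr with a minimum count of 10): 7 groups in 1 fit, 14 residual degrees of freedom and 17468 features tested, 1617 of them unannotated, with a common biological coefficient of variation of 0.162. Adjustment was by Benjamini-Hochberg over all features, with a threshold of 0.05. The SE of a log2 change is its size over the root of F. CPM uses TMM-scaled totals. A count of 0 allows up to 3 counts, or 0.0735 to 0.107 CPM, for counting error only. Replicates differed by 5.46 to 207 in chi-square per gene over 21 pairs. On simulated counts with a 2-fold change at 1000 µM, 61.8% of 199 changed genes of 17243 were recovered. That setting differs from the data, where 41.2% of genes were called at this dose and most genes described changed by less. The recovered share therefore does not carry over to them.

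The genes and lists were chosen with earlier results of these data known. Values in every library are given for the fibrinogen genes, ALB, AFP, up to 6 genes per group with the largest called change at 1000 µM and a mean of at least 1 CPM, and up to 3 per group called at 10 or 100 µM. Alternatives were DESeq2 1.42.0, RLE scaling, no filter, an adjusted p under 0.01, a replicate block, fits of 2 groups alone, leaving out each library, and slopes on other doses. Some genes of the written lists are not reported here.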

Additional observations from a re-analysis of the deposited data

How the results depend on the processing

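The counts of genes called depended most on the setting at the lower doses, and the cause was not tested unless the setting itself lowers a count (a stricter threshold). At 0.01 µM 2 genes became 5 with DESeq2, 1 without the filter, and 0 with the replicate block, the stricter threshold (an adjusted p under 0.01) or a fit of the 2 groups alone. At 0.1 µM 0 became 1 with DESeq2. At 1 µM 0 became 4 with DESeq2 and 1 without the filter. At 10 µM 8 became 4 with the stricter threshold and 13 in the fit of the 2 groups alone. At 100 µM 2 became 1 without the filter, with the replicate block or with the stricter threshold, and 11 in the fit of the 2 groups alone. At 1000 µM 23 became 14 with the stricter threshold. The 15 slopes became 9 with the stricter threshold, 3 without the libraries at 1000 µM and 6 with the 18 treated libraries alone. Against the mean of 0.01, 0.1 and 1 µM 15 became 9 without the filter and 8 with the stricter threshold. The other settings stayed within 1.5 times the count.

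With 1 library left out, the genes called were 0 to 3 for 0.01 µM, 0 to 1 for 0.1 µM and 0 to 5 for 1 µM. For 10 µM they were 3 to 10, for 100 µM 0 to 1 and for 1000 µM 16 to 20. The slopes called were 11 to 20, and the genes against the mean of the 3 lowest doses 10 to 15. No log2 change at 1000 µM of a gene called and given per library changed direction under any setting run, while ALB, which was not called, had -0.07 and reached 0.03 without the first replicate at 0 µM and 0.06 without the first at 1000 µM. Among these genes, the call of C8A was lost with DESeq2, and those of C8A and FGG without the filter (adjusted p 0.154 and 0.0807). RLE scaling moved the median of all genes at 1000 µM from -0.03 to -0.01.

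The labels number the replicates of each dose from 1 to 3. Libraries of the same number did not deviate together: of 63 such pairs 11 had a correlation over 0.1, the lowest was -0.437, and 5 of 21 libraries correlated best with their own number. With the replicate block 22 genes were called at 1000 µM, 6 at 10 µM, 15 slopes and 13 against the mean of the 3 lowest doses, and F10 was the gene lost at 1000 µM (adjusted p 0.0511, edgeR).

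Genes with few counts, such as PLG, F13B, C8B and HPX, have wide errors at this depth.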

Other observations

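Several other plasma protein genes differed at 1000 µM from 0 µM in edgeR's test, and the ones given here were chosen after their values were seen. FGL1, which encodes a fibrinogen-like protein, was at 252 ± 37.8 CPM (SD, n = 3) without caffeine and 408 ± 35.7 CPM at 1000 µM, a log2 change of 0.70 (adjusted p 0.000135). CP (ceruloplasmin, the copper carrier) rose by 0.57 and A2M (alpha-2-macroglobulin, a broad protease inhibitor) by 0.42. RBP4 (the retinol carrier) fell from 719 ± 24.8 to 478 ± 57.8 CPM (SD, n = 3), and LRG1 from 52.3 ± 2.16 to 30.1 ± 3.24 CPM. VTN (vitronectin) fell by 0.50 on the log2 scale. TF (transferrin) was at 3542 ± 199 and 3665 ± 373 CPM (SD, n = 3) and did not pass (adjusted p 0.739). CP overlaps exons of HPS3 on the opposite strand.

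F7 (factor VII) and C4BPA passed at no dose, but varied between libraries of the same dose. At 1 µM F7 was at 16.8, 22.0 and 34.3 CPM and C4BPA at 38.4, 33.9 and 24.9 CPM, in replicate order. At 10 µM F7 was at 30.3, 27.6 and 21.6 CPM and C4BPA at 25.9, 32.4 and 38.2 CPM. The share of mitochondrial counts in these 6 libraries was 4.95%, 7.80% and 14.2% at 1 µM and 11.3%, 9.96% and 6.48% at 10 µM. Of the genes called at 1000 µM, C3 ran in the order of that share within 1, 10 and 100 µM. C4BPB and HP ran in the reverse order there, and none of the 3 genes did so at 0.01 or 1000 µM. In the first replicate at 0.01 µM, with a share of 11.7%, F7 was at 17.9 and C4BPA at 39.2 CPM. In that library prothrombin (F2) was at 247 CPM and ORM1 at 407 CPM, each the lowest of the 21 libraries. The part of these library differences in the dose comparisons was not tested.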
